A study of Homo sapiens with 6 samples.

Results

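The genes described here encode the proteins of the cytosolic ribosome of HCT116 cells, an established line from a human colorectal carcinoma. They were taken by name from the 20026 gene rows kept: every symbol of the RPL or RPS series with a number and at most a final A or X, together with RPLP0, RPLP1, RPLP2 and RPSA. The rule gave 77 genes, 46 of the large subunit and 31 of the small subunit, and it used no measured value. It left out paralogs such as RPS27L, and also FAU, which encodes a fusion protein with a ribosomal part. The study compared 3 stable HCT116 lines by RNA sequencing, with 2 libraries each: a line with the mutant TEAD4 K178R, a line with wild type TEAD4 and a control line. TEAD4 is a DNA-binding transcription factor through which the coactivators of the Hippo pathway act, and K178R is the usual notation for an arginine in place of a lysine. The labels give neither the vector and promoter of the lines nor whether a line was 1 clone or a pool, and they do not say what the control carried beyond the word control.

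The ribosome is built from a large and a small subunit, each made of ribosomal RNA and a set of small proteins that are mostly present in 1 copy per particle. Growing cells make these proteins in large and nearly equal amounts, and surplus single proteins are degraded. Their mRNAs begin with a run of pyrimidines, the terminal oligopyrimidine (TOP) motif, through which mTORC1 and the RNA-binding protein LARP1 set their translation and stability. MYC raises their transcription in many cell types. Most of these genes have many processed pseudogenes, which are intronless copies scattered over the genome.

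TEAD4 itself had 71.2 and 72.3 FPKM in K178R libraries, 86.4 and 84.4 FPKM in wild type libraries and 16.6 and 17.5 FPKM in control libraries, so both TEAD4 lines stood above the control line, and the level in the K178R line was below that in the wild type line (log2 change -0.25, adjusted p = 0.00131). The genotype label of wild type replicate 2 names TEAD5, its title names wild type TEAD4, and it was kept in the group of its title. The summed FPKM (a fragment count divided by transcript length and sequencing depth) of all genes was between 283195 and 305329 per library. Depths relative to control replicate 1 were estimated, not counted from reads, and were between 0.914 and 1.05. The number of reads is unknown. The labels do not state whether the paired libraries of each line were grown as separate cultures, and the p-values therefore reflect library-to-library spread that may be technical. The epithelial markers EPCAM, KRT8 and KRT18 were high in all 6 libraries, CDH1 was between 10.2 and 13.1 FPKM, CDX1 was listed at 0, and VIL1 and LGALS4 stayed near 0. The 7 epithelial markers summed to 2430 and 2440 FPKM in K178R libraries, 1403 and 1366 FPKM in wild type libraries and 2171 and 2133 FPKM in control libraries, nearly all of it from the keratins. The summed markers moved opposite to the ribosomal protein genes between K178R and wild type libraries, and their part in the results was not tested. Fibroblast, leukocyte and endothelial marker lists summed to between 1.35 and 5.16 FPKM in every library, with the defining genes DCN, LUM, PTPRC, CD3E, PECAM1 and CDH5 at or near 0.

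The starts of a few of these genes are shown because the pyrimidine run at the first transcribed base is the feature that the family shares and the rule did not use. Each line holds 15 bases before the start and 15 from the start on, from RefSeq on GRCh38.p14, on the gene's own strand. Capitals mark the unbroken run of C and T that begins at the annotated start, and a sequence without capitals has no such run there. RPL3 (chr22:39319609-39319638, minus strand), RPL28 (chr19:55385917-55385946, plus strand), RPS28 (chr19:8321481-8321510, plus strand) and RPS21 (chr20:62387088-62387117, plus strand) are among the genes with the largest changes. RPL12 (chr9:127451392-127451421, minus strand) and RPS6 (chr9:19380222-19380251, minus strand) are among those with the smallest changes between the TEAD4 lines. RPS27 (chr1:153990747-153990776, plus strand) is set beside its paralog RPS27L (chr15:63157463-63157492, minus strand), whose RNA changed far more.
RPL3: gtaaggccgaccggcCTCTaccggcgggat
RPL28: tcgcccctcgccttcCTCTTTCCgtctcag
RPS28: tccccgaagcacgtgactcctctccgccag
RPS21: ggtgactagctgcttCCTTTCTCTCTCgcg
RPL12: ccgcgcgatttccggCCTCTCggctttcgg
RPS6: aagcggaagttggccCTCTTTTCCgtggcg
RPS27: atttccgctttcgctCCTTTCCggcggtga
RPS27L: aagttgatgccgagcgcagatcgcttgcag

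A start with C followed by 4 bases that are each C or T was found in 46 of the 62 genes with a RefSeq entry (74.2%), against 650 of 9024 other tested genes with an entry (7.2%). The 62 genes had 77 entries, each an annotated start. For this and the motifs below, a gene counted when any of its starts matched, so shares depend on the number of starts. Among 69 genes of the mitochondrial ribosome, whose mRNAs are not of this class, 6 had such a start (8.7%). RPS28 and RPL3 in the lines above do not match that pattern at the annotated base, which can lie a few bases from the start used in these cells. Other motifs were searched on both strands of the 300 bases around each start, 250 before it and 50 after it, each on its own, so matches of different motifs may overlap. GGAATG, the core of the motif TEAD proteins bind, was in 5 of 62 genes (8.06%), against 14.6% of the other tested genes. CACGTG, the E-box bound by MYC and MAX, was in 4 of 62 (6.45%), against 12.9%. CGGAAG, the core of the ETS family motif, was in 40 of 62 (64.5%), against 40.0%. These matches are letters in a window and do not show binding. The 15 genes without an entry included RPL5, RPL7, RPL8, RPL23, RPL23A, RPL30, RPL37, RPS2, RPS15A and RPS20.

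Ribosomal protein mRNAs were among the most abundant of these cells. By mean FPKM over the 6 libraries, 53 of the 100 highest genes belonged to the family. The median level was 648.8 FPKM, against 7.02 FPKM for the 11445 genes tested, and large and small subunit genes had medians of 653.6 and 526.2 FPKM. Levels nevertheless spanned a wide range: 25 genes had at least 1000 FPKM, 48 had between 100 and 1000 FPKM, and 4 had less than 100 FPKM. RPLP1, an acidic protein of the stalk that recruits elongation factors, had the highest level, with 2865 and 2866 FPKM in K178R libraries, 3328 and 3163 FPKM in wild type libraries and 3089.7 and 3199 FPKM in control libraries. RPS2, a protein of the small subunit near the mRNA entry side, came next, with 2863 and 3125 FPKM in K178R libraries, 2983 and 3068 FPKM in wild type libraries and 2952 and 2848 FPKM in control libraries. RPS12 followed, at a mean of 2284 FPKM over the libraries. At the low end, RPL36A had 5.95 and 5.28 FPKM in K178R libraries, 6.05 and 7.13 FPKM in wild type libraries and 6.54 and 5.74 FPKM in control libraries, RPS29 had between 15.7 and 19.0 FPKM and RPL28 between 22.6 and 30.4 FPKM. RPL36A shares its sequence with the read-through gene RPL36A-HNRNPH2, which had 69.5 and 69.8 FPKM in K178R libraries, 86.2 and 82.3 FPKM in wild type libraries and 74.5 and 72.2 FPKM in control libraries, and the paralog RPL36AL had 289 to 330 FPKM in the same libraries. GENCODE release 29 names 1133 numbered pseudogenes for 76 of the 77 genes, among them 91 of RPL23A and 74 of RPSA. The authors' treatment of reads that match several places is not given in the sources used here, so levels of single genes are uncertain where copies could share reads, and so are short genes such as RPL41 with a coding length of 75 bases. All 77 genes passed the filter of at least 0.5 FPKM in at least 2 libraries. Within a line, the libraries differed by a median of 0.027 on the log2 scale in K178R, 0.043 in wild type and 0.031 in control, and RPL36A differed most in each line.

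**Figure D1:**
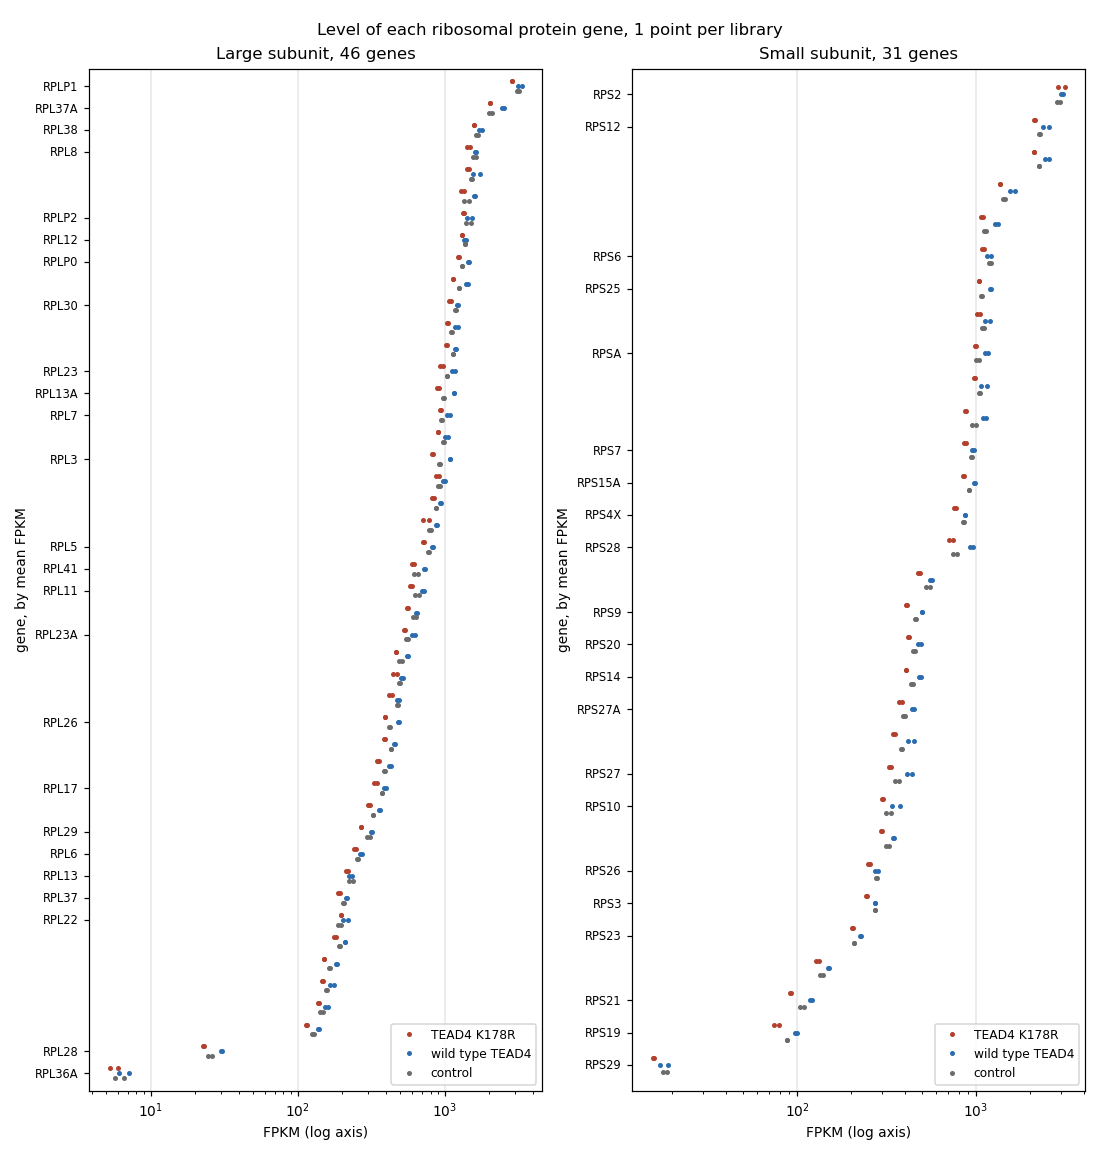
FPKM (log axis) of each of the 46 large subunit and 31 small subunit genes, ordered by mean level (genes named in the text are labelled), with 1 point per library: red for K178R, blue for wild type TEAD4 and grey for control. Means over the libraries run from 6.11 FPKM for RPL36A to 3085 FPKM for RPLP1, and for most genes the K178R points lie left of both other lines.

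The K178R line had lower ribosomal protein mRNA levels than the wild type TEAD4 line across both subunits. Of the 77 genes, 73 fell and 0 rose, 43 of 46 in the large subunit and 30 of 31 in the small subunit, against a background of 34.5% of all tested genes called lower and 10.4% called higher (limma, adjusted p under 0.05). Their summed FPKM was 56834 and 57431 in K178R libraries, against 66785 and 65283 in wild type libraries, a difference of -13.5% of the mean. The median log2 change, on the log2(FPKM + 1) scale used for all changes here, was -0.21, against -0.084 for all genes tested. By median-of-ratios scaling, which sets the typical gene to no change, 50 fell (background 19.7%) and 0 rose (background 22.8%), and the median was -0.099, against 0.0089 for all genes. In the deposited values both K178R libraries lay under both wild type libraries for 76 of the 77 genes, where 52.7% of all tested genes did so, and RPS2 was the exception. RPL36A, RPL22, RPL13 and RPS2 were the genes not called. At an unadjusted p under 0.05, limma gave 74 lower and 0 higher, and the share of all tested genes at that threshold is not given here.

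RPL3, a core protein of the large subunit close to the site of peptide bond formation, had 820.3 and 828 FPKM in K178R libraries, 1089 and 1082 FPKM in wild type libraries and 924 and 917 FPKM in control libraries. The wild type libraries were the highest, the K178R libraries the lowest, and no groups overlapped. It fell the most of the family in K178R against wild type (log2 change -0.40, standard error 0.019, adjusted p = 2.78e-05), and by 0.28 by median-of-ratios scaling. RPL28, a large subunit protein at a low RNA level, had 23.1 and 22.6 FPKM in K178R libraries, against 30.0 and 30.4 FPKM in wild type libraries, and fell as well (log2 change -0.39, standard error 0.037, adjusted p = 0.000343). RPS28, a small protein beside the mRNA exit, had 744 and 705 FPKM in K178R libraries, 929 and 961 FPKM in wild type libraries and 788 and 748 FPKM in control libraries. Its wild type libraries stood apart from the other 4, which lay closer together (log2 change -0.38, standard error 0.036, adjusted p = 0.000328, K178R against wild type). RPS21 had 93.1 and 91.5 FPKM in K178R libraries, 119 and 122 FPKM in wild type libraries and 110 and 104 FPKM in control libraries. Its 3 lines did not overlap, with the wild type line at the top and the K178R line at the bottom (log2 change -0.38, standard error 0.033, adjusted p = 0.000238). RPL13A, known in other cells as a protein that leaves the ribosome to repress inflammatory mRNAs, had 907 and 879 FPKM in K178R libraries, against 1147 and 1148 FPKM in wild type libraries (log2 change -0.36, standard error 0.024, adjusted p = 8.68e-05).

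Of the 5 genes with the smallest differences between these lines without scaling, RPS2, RPL12 and RPS6 were above the family's median level and RPL13 and RPL22 below it. RPS2 had 2863 and 3125 FPKM in K178R libraries, against 2983 and 3068 FPKM in wild type libraries, and these overlapped (log2 change -0.016, standard error 0.041, adjusted p = 0.770). RPL13 had 212 and 219.9 FPKM in K178R libraries, against 233 and 223 FPKM in wild type libraries (log2 change -0.077, standard error 0.038, adjusted p = 0.133). RPL12, at the base of the stalk, had 1301 and 1305 FPKM in K178R libraries, against 1403 and 1351 FPKM in wild type libraries, and fell in the deposited values (log2 change -0.079, standard error 0.023, adjusted p = 0.0282), while its log2 change was 0.033 by median-of-ratios scaling. RPS6, the classical substrate of S6 kinase, fell by 0.12 (adjusted p = 0.0137), and its log2 change was -0.0031 by median-of-ratios scaling. RPL22 had 197 and 196 FPKM in K178R libraries, against 203 and 219.8 FPKM in wild type libraries (log2 change -0.10, standard error 0.039, adjusted p = 0.0630). By median-of-ratios scaling the values of RPS2, RPL13 and RPL22 were 0.096, 0.035 and 0.0073, opposite in sign to those without it, and none of the 5 genes was called.

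Many ribosomal protein mRNAs of both subunits were also lower in the K178R line than in the control line. Of the 77 genes, 46 fell and 0 rose, 29 of 46 in the large subunit and 17 of 31 in the small subunit, against a background of 11.1% called lower and 11.7% called higher. The summed FPKM was 56834 and 57431 in K178R libraries, against 61023 and 60801 in control libraries, a difference of -6.20% of the mean. The median log2 change was -0.11, against 0.0025 for all genes tested, and 75 of 77 changes were below 0. By median-of-ratios scaling 50 genes fell (background 11.9%) and 0 rose (background 10.9%), with a median of -0.12. At an unadjusted p under 0.05, limma gave 57 lower and 0 higher without scaling, again with no share of all tested genes to set beside them. Both K178R libraries lay under both control libraries for 71 of the 77 genes, where 30.3% of all tested genes did so. The count of 46 fell when any control or K178R library was left out, which leaves 1 library in that group. The share of all tested genes is not given for those fits, so whether the fall is particular to the family cannot be told.

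RPS21 showed the largest change of this comparison (log2 change -0.21, standard error 0.033, adjusted p = 0.00453). RPS29, with 15.7 and 15.9 FPKM in K178R libraries, against 18.8 and 17.8 FPKM in control libraries, followed (log2 change -0.19, standard error 0.052, adjusted p = 0.0352). RPS19, the small subunit protein most often mutated in Diamond-Blackfan anaemia, had 79.3 and 74.9 FPKM in K178R libraries, against 88.6 and 87.6 FPKM in control libraries (log2 change -0.19, standard error 0.034, adjusted p = 0.00738). These libraries did not overlap. RPS9 had 412 and 405 FPKM in K178R libraries, against 464 and 459.6 FPKM in control libraries (log2 change -0.18, standard error 0.021, adjusted p = 0.00139). RPL29 fell by 0.16 (adjusted p = 0.00505). At the other end, RPS2 had a log2 change of 0.045 ± 0.041 and RPL22 of 0.030 ± 0.039 (± standard error), the only values above 0 in the family without scaling. RPL37A at -0.019, RPL7 at -0.021 and RPS23 at -0.021 were close to 0 and were not called.

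The wild type TEAD4 line had higher ribosomal protein FPKM than the control line, though 7820 of the 11445 tested genes had a value above 0 as well. Of the 77 genes, 50 rose and 0 fell, 30 of 46 in the large subunit and 20 of 31 in the small subunit, against a background of 37.6% called higher and 12.2% called lower. The summed FPKM was 66785 and 65283 in wild type libraries, against 61023 and 60801 in control libraries, a difference of 8.41% of the mean. The median log2 change was 0.12, against 0.093 for all genes tested. This direction depended on the scaling. At an equal total FPKM 37 genes rose (background 30.8%) and 0 fell (background 16.2%), with a median of 0.0709, against 0.0552 for all genes tested. By median-of-ratios 8 genes rose (background 22.4%) and 12 fell (background 25.3%), with a median of -0.0068, and the summed FPKM differed by -0.448%. Median-of-ratios scaling moved the median of all genes by -0.10 here, and the median of the 77 genes minus that of all genes was 0.0235 without scaling and 0.0019 with it. Unadjusted p-values under 0.05 without scaling numbered 59 for higher and 0 for lower values in limma, with no share of all tested genes given. In the deposited values both wild type libraries lay above both control libraries for 65 of the 77 genes, where 54.9% of all tested genes did so.

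RPS28 showed the largest change (log2 change 0.30, standard error 0.036, adjusted p = 0.000587), with 929 and 961 FPKM in wild type libraries, against 788 and 748 FPKM in control libraries. RPL37A, a small zinc-binding protein of the large subunit, had 2539.9 and 2447 FPKM in wild type libraries, against 2007 and 2109.9 FPKM in control libraries (log2 change 0.28, standard error 0.030, adjusted p = 0.000380). RPL28 (0.24, adjusted p = 0.00165), RPL3 (0.24, adjusted p = 0.000120) and RPS27 (0.23, adjusted p = 0.00164) also rose. By median-of-ratios scaling the 8 genes that rose included RPS28, RPL37A, RPL28, RPL3, RPS27, RPL13A and RPL26. The lowest log2 changes without scaling were -0.018 ± 0.028 for RPS6, -0.013 ± 0.052 for RPS29, -0.013 ± 0.038 for RPL13, -0.0049 ± 0.028 for RPS26 and 0.0022 ± 0.022 for RPS3, none of them called. RPS6, RPL13, RPS26 and RPS3 were among the 12 genes that fell by median-of-ratios scaling.

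The comparisons share libraries, so their calls are given side by side. Against control, 29 genes were called lower in the K178R line and higher in the wild type line, where 1.94% of all tested genes were. Another 17 were called lower in the K178R line alone (4.64% of all tested genes), 21 were called higher in the wild type line alone (26.5%) and 10 were called in neither (43.2%). By median-of-ratios scaling the genes called lower in the K178R line comprised 11 with a lower call in the wild type line (7.25% of all tested genes), 34 with no call there (3.79%) and 5 with a higher call there (0.892%). Those 5 were RPL13A, RPL26, RPL28, RPL3 and RPS27.

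Without scaling, the median of the 77 genes minus that of all tested genes was -0.13 in K178R against wild type, -0.11 in K178R against control and 0.0235 in wild type against control. A scaling shifts all genes of a library together, so this distance changes with it only through the added pseudocount and the filter. By median-of-ratios scaling it was -0.1074, -0.1102 and 0.0019 in the same order. After scaling to the median of the 77 genes it was -0.0903, -0.0906 and 0.0044. The counts of calls depend on the scaling directly. Upper-quartile scaling gave 62 lower genes in K178R against wild type (background 22.9%), 51 lower in K178R against control (background 12.0%), and 14 higher and 7 lower in wild type against control (background 25.2% and 21.6%). At an equal total FPKM the counts were 59 lower (background 21.9%), 24 lower (background 7.11%), and 37 higher and 0 lower (background 30.8% and 16.2%). When the median of ratios was taken over the 9952 genes of at least 1 FPKM in all libraries, a choice made after the data had been seen, 59 genes fell in K178R against wild type (background 22.6%), 49 fell in K178R against control (background 11.6%), and 16 rose and 7 fell in wild type against control (background 25.7% and 21.1%). Values per library cannot tell less ribosomal protein mRNA per cell from more of other mRNA, since FPKM is relative to the library. Fewer cells of a type and less RNA per cell cannot be told apart in such bulk samples.

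**Figure D2:**
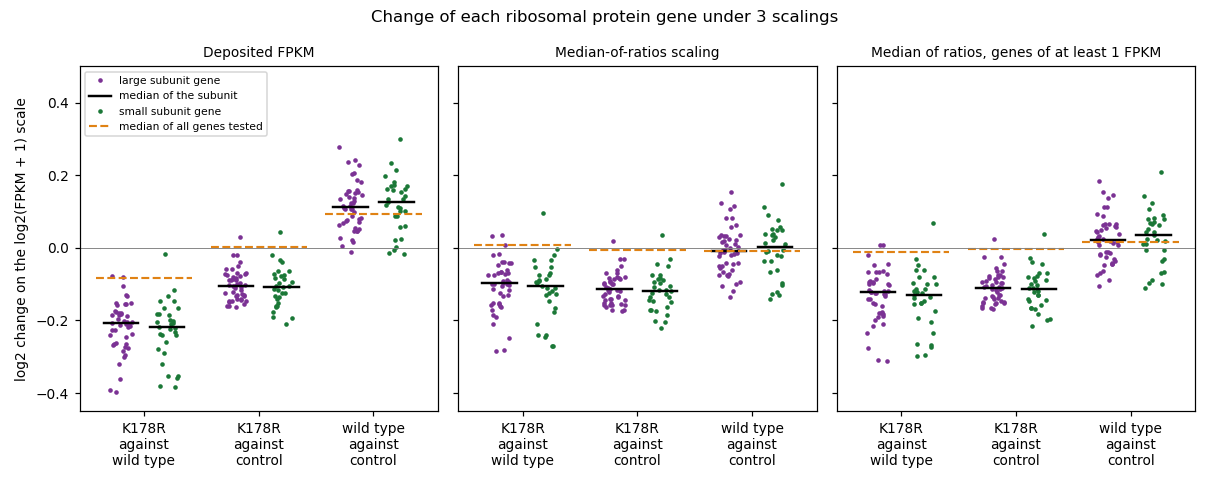
Log2 change of each gene (1 point per gene, purple for the large and green for the small subunit) in the 3 comparisons, without added scaling and with the median-of-ratios scaling over all genes above 0 or over genes of at least 1 FPKM. Black bars are subunit medians and dashed orange lines the median of all tested genes: most points of both K178R comparisons lie below the orange line in every panel, with RPS2 above it, while the points of wild type against control lie on both sides of it.

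The medians of the large and the small subunit lay close together in every comparison. In K178R against wild type the median log2 change was -0.21 for the large and -0.22 for the small subunit. In K178R against control both medians were -0.10 and -0.11, and in wild type against control they were 0.11 and 0.13. The difference between the subunit medians, large minus small, was 0.0084, 0.0046 and -0.0127 in these comparisons, while the same difference of mean log2 FPKM varied between libraries of a line with a pooled standard deviation of 0.0119. Large subunit genes summed to 11.9% of all FPKM in both K178R libraries, 13.0% and 12.9% in wild type libraries and 12.3% and 12.4% in control libraries. Small subunit genes summed to 8.20% and 8.17% in K178R libraries, 8.86% and 8.79% in wild type libraries and 8.43% and 8.33% in control libraries. Wild type libraries were the highest and K178R libraries the lowest for each subunit, with no overlap between lines. The ratio of the summed FPKM of large to small subunit genes was 1.449 and 1.461 in K178R libraries, 1.467 and 1.466 in wild type libraries and 1.459 and 1.485 in control libraries. These ratios overlapped between K178R and control, and the control libraries bracketed those of wild type. Both K178R ratios lay below both wild type ratios. The large minus small difference of mean log2 FPKM overlapped between the TEAD4 lines: -0.0064 and 0.0144 in K178R, -0.0096 and -0.0036 in wild type libraries. A ratio of FPKM sums depends on the few highest genes and is no count of particles.

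**Figure D3:**
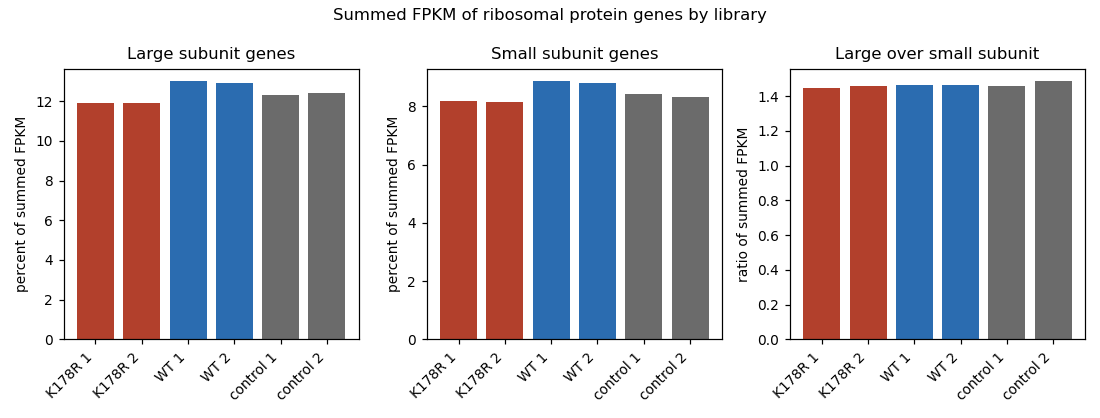
Summed FPKM of the 46 large and 31 small subunit genes as a percent of all FPKM, and the ratio of the sums, 1 bar per library with K178R in red, wild type TEAD4 in blue and control in grey. Each subunit is lowest in the K178R bars and highest in the wild type bars, while the ratio stays between 1.449 and 1.485.

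Some genes departed from the common change. These were tested after all libraries were scaled to the median of the 77 genes, so that a call means a change unlike that of the typical ribosomal protein gene. In K178R against wild type, 9 genes lay above the family (background 39.2%) and 13 below it (background 11.8%). Those above were RPS2, RPL13, RPL12, RPS6, RPL6, RPS7, RPS23, RPL38 and RPL30, and those below were led by RPL28, RPL3, RPS21 and RPS28. In K178R against control, RPS2, RPL22, RPL37A, RPS23 and RPS25 lay above (background 29.8%), and RPS21, RPS9 and RPL3 below (background 4.91%). In wild type against control, 11 lay above (background 23.5%) and 9 below (background 23.2%). As a share of the 77 genes, only those below the family in K178R against wild type (16.9%) exceeded the background. Both subunits were present on each side of each comparison. RPL3 had a log2 change relative to the family of -0.18 in K178R against wild type (adjusted p = 0.000204), -0.055 in K178R against control (adjusted p = 0.0485) and 0.13 in wild type against control (adjusted p = 0.00103). RPS2 had 0.20 (adjusted p = 0.00460), 0.15 (adjusted p = 0.0232) and -0.049 (adjusted p = 0.346) in the same order. The value of RPS2 in K178R rests partly on replicate 2, with 3125 FPKM against 2863 FPKM in replicate 1. Across the 77 genes, which are not independent replicates, changes were weakly related to mean level, coding length and number of pseudogenes, with Pearson's r between -0.158 and 0.298.

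**Figure D4:**
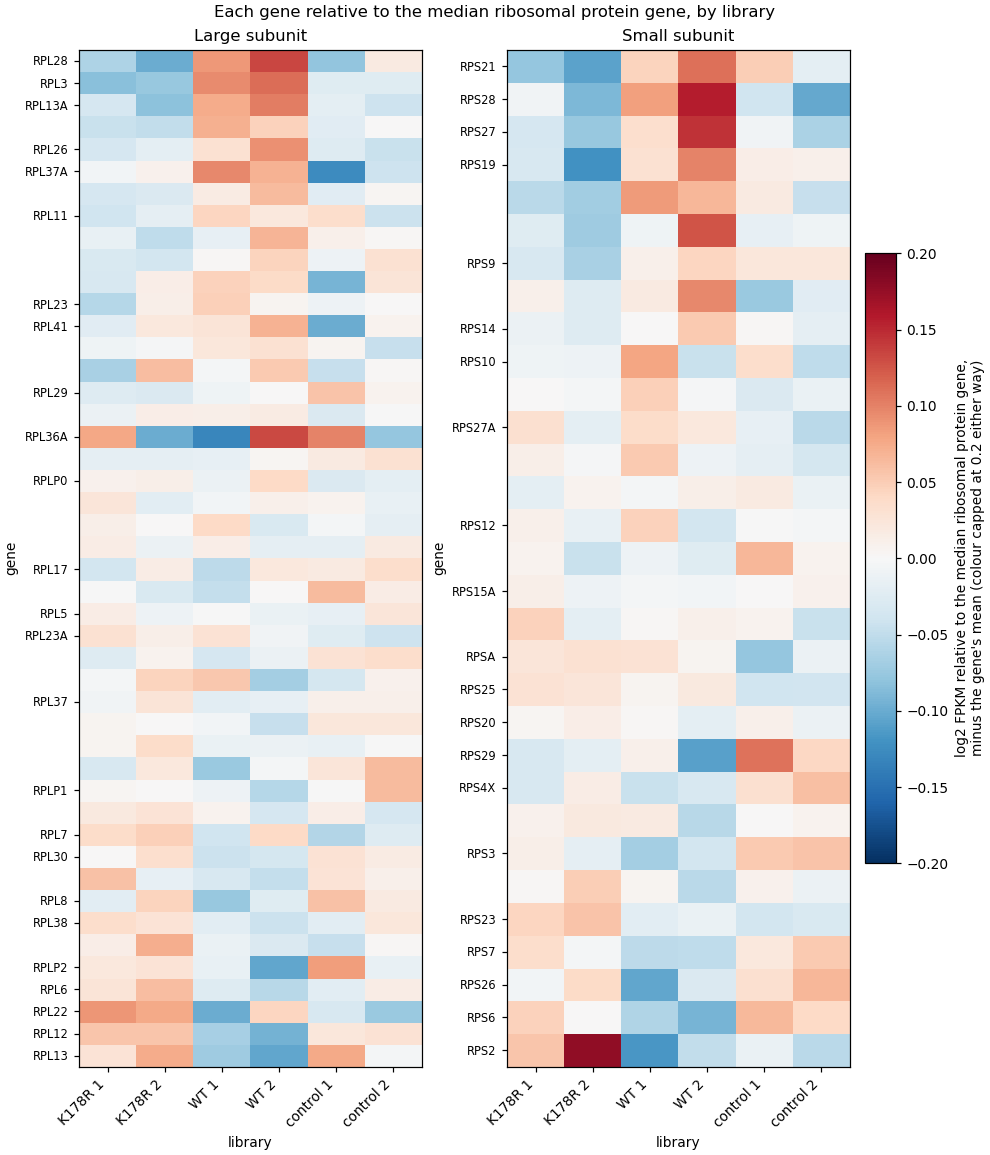
Log2 FPKM of each gene in each library after all libraries were scaled to the median ribosomal protein gene, minus the gene's own mean over the 6 libraries (red above, blue below, capped at 0.2). Genes are ordered by wild type minus K178R, with those named in the text labelled: RPL28, RPL3, RPS21 and RPS28 at the top are red in wild type and blue in K178R columns, and RPL13, RPL12, RPS6 and RPS2 at the bottom show the opposite.

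Among the proteins of the stalk, RPLP0, the anchor of the stalk, had 1238 and 1245 FPKM in K178R libraries, 1432 and 1457 FPKM in wild type libraries and 1305 and 1302 FPKM in control libraries. The 3 lines did not overlap, and RPLP0 fell in K178R against wild type (log2 change -0.22, standard error 0.020, adjusted p = 0.000267) and against control (log2 change -0.070, standard error 0.020, adjusted p = 0.0401). RPLP1 fell in K178R against wild type (-0.18, adjusted p = 0.00264) and against control (-0.13, adjusted p = 0.0166), and was not called in wild type against control (0.045, adjusted p = 0.232). RPLP2, the partner of RPLP1 in the stalk dimers, had 1339 and 1350 FPKM in K178R libraries, 1533 and 1416 FPKM in wild type libraries and 1514 and 1402 FPKM in control libraries. Its wild type and control libraries overlapped, and it was called in K178R against wild type alone (-0.13, adjusted p = 0.0494). By median-of-ratios scaling RPLP1 and RPLP2 were not called in K178R against wild type (-0.067 and -0.020, adjusted p = 0.111 and 0.748), and RPLP0 was (-0.11, adjusted p = 0.00494).

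RPL5 and RPL11 bind the 5S ribosomal RNA and, outside the ribosome, the ubiquitin ligase MDM2. RPL5 had 722 and 712 FPKM in K178R libraries, 838 and 815 FPKM in wild type libraries and 764 and 779 FPKM in control libraries. RPL11 had 583 and 594 FPKM in K178R libraries, 725 and 701 FPKM in wild type libraries and 665 and 625 FPKM in control libraries. In both genes the K178R line was lowest and the wild type line highest without overlap. In K178R against wild type RPL5 fell by 0.21 (adjusted p = 0.000638) and RPL11 by 0.28 (adjusted p = 0.000856), and both fell against control as well (adjusted p = 0.0169 and 0.0307). In wild type against control RPL5 changed by 0.099 and RPL11 by 0.15 without scaling, and by -0.024 and 0.023 by median-of-ratios scaling, where neither was called. Of 6 genes linked to MDM2 or to 5S particle assembly, 2 rose and 2 fell in K178R against wild type (background 10.4% and 34.5%). In wild type against control 2 rose and 2 fell (background 37.6% and 12.2%). MDM2 itself fell in K178R against wild type (-0.46, adjusted p = 0.000236) and rose in wild type against control (0.54, adjusted p = 7.82e-05). Its relative MDM4 moved the opposite way in both comparisons (0.30 and -0.24, adjusted p = 0.00196 and 0.00391). RRS1, which helps to load the 5S particle, fell in wild type against control (-0.17, adjusted p = 0.00966). BRIX1, a large subunit assembly factor, was the other gene that rose in K178R against wild type (0.10, adjusted p = 0.0218). None of MDM2, MDM4, RRS1 and BRIX1 was called in K178R against control without scaling (adjusted p = 0.180, 0.397, 0.0583 and 0.571 in limma), and RRS1 fell there by median-of-ratios scaling (-0.14).

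In the small subunit, RPS3 and RPSA lie on the solvent side and RPS14 at the platform. RPS3, which lines the mRNA entry channel, had 247 and 242 FPKM in K178R libraries, 274 and 275 FPKM in wild type libraries and 274 and 273 FPKM in control libraries. Its K178R libraries lay under the other 4, and the wild type and control libraries overlapped. RPS3 fell in K178R against wild type (-0.16, adjusted p = 0.00111) and against control (-0.16, adjusted p = 0.00215). By median-of-ratios scaling the call against wild type was lost (-0.053, adjusted p = 0.0869). RPSA, also known as a laminin receptor precursor, had 989 and 997 FPKM in K178R libraries, 1164 and 1125 FPKM in wild type libraries and 998 and 1035 FPKM in control libraries. It was lower in K178R against wild type (-0.20, adjusted p = 0.00113) and was not called against control (-0.033, adjusted p = 0.421), with 74 numbered pseudogenes that could share its reads. RPS14, lost with the long arm of chromosome 5 in a myelodysplastic syndrome, fell in K178R against wild type (-0.26, adjusted p = 0.000236) and against control (-0.12, adjusted p = 0.0103). RPS4X, whose gene lies on the X chromosome, fell by 0.19 and 0.16 in the same comparisons (adjusted p = 0.00100 and 0.00346). RPS27A, made as a fusion with ubiquitin, had 385 and 372 FPKM in K178R libraries, 453 and 439.7 FPKM in wild type libraries and 403 and 389 FPKM in control libraries, fell in K178R against wild type (-0.24, adjusted p = 0.000836) and was not called against control (-0.064, adjusted p = 0.155). RPL41, the smallest protein of the ribosome, had the same pattern of calls, at -0.26 (adjusted p = 0.00104) and -0.059 (adjusted p = 0.255).

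FAU and RACK1, which encode a ribosomal and a ribosome-bound protein that the naming rule does not take, fell in the K178R line too. FAU, whose product is cut into a ubiquitin-like protein and RPS30, had 561 and 592 FPKM in K178R libraries, 689 and 646 FPKM in wild type libraries and 651 and 646 FPKM in control libraries. RACK1, a scaffold protein bound to the small subunit, had 798 and 812 FPKM in K178R libraries, 896 and 897 FPKM in wild type libraries and 879 and 885 FPKM in control libraries. Both fell in K178R against wild type (log2 change -0.21 and -0.16, adjusted p = 0.00352 and 0.00103) and against control (-0.17 and -0.13, adjusted p = 0.0166 and 0.00386). By median-of-ratios scaling neither was called in K178R against wild type (adjusted p = 0.0658 and 0.127), and both fell in K178R against control. In wild type against control neither was called without scaling (adjusted p = 0.379 and 0.364), and RACK1 fell by median-of-ratios scaling (-0.10, adjusted p = 0.00602).

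Paralogs of the family did not all follow it. RPS27L, a paralog of RPS27, had 43.1 and 44.0 FPKM in K178R libraries, 90.9 and 90.7 FPKM in wild type libraries and 51.9 and 54.5 FPKM in control libraries. Its wild type libraries stood well above the other 4. It rose in wild type against control (log2 change 0.76, standard error 0.032, adjusted p = 6.60e-06) and fell in K178R against wild type (log2 change -1.04, standard error 0.032, adjusted p = 7.02e-06) and against control (log2 change -0.28, standard error 0.032, adjusted p = 0.00102). RPS27 itself had 336 and 327 FPKM in K178R libraries, 413 and 438 FPKM in wild type libraries and 370.1 and 353 FPKM in control libraries. RPS27L amounted to 12.8% and 13.5% of RPS27 in K178R libraries, 22.0% and 20.7% in wild type libraries and 14.0% and 15.5% in control libraries, so the wild type line stood apart from the other lines. RPL26L1, a paralog of RPL26, had 18.7 and 18.1 FPKM in K178R libraries, 16.5 and 15.3 FPKM in wild type libraries and 14.4 and 14.7 FPKM in control libraries, the opposite order to the family in K178R libraries. It rose in K178R against wild type (log2 change 0.20, standard error 0.044, adjusted p = 0.00923) and against control (log2 change 0.32, standard error 0.044, adjusted p = 0.00237), where RPL26 fell (-0.30 and -0.096). RPL26L1 amounted to 4.80% and 4.58% of RPL26 in K178R libraries, 3.45% and 3.13% in wild type libraries and 3.40% and 3.53% in control libraries. RPL36AL fell in K178R against control (-0.15, adjusted p = 0.00744) and against wild type (-0.089, but 0.023 by median-of-ratios scaling), and RPL22L1 and RPL7L1 were called in no comparison without scaling. By median-of-ratios scaling RPL22L1 fell in K178R against control (-0.11, adjusted p = 0.0362) and in wild type against control (-0.18, adjusted p = 0.00241), and RPL7L1 fell in wild type against control (-0.11, adjusted p = 0.0134). RPL39L and RPL10L were listed at 0 in every library and RPL3L was near 0.

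**Figure D5:**
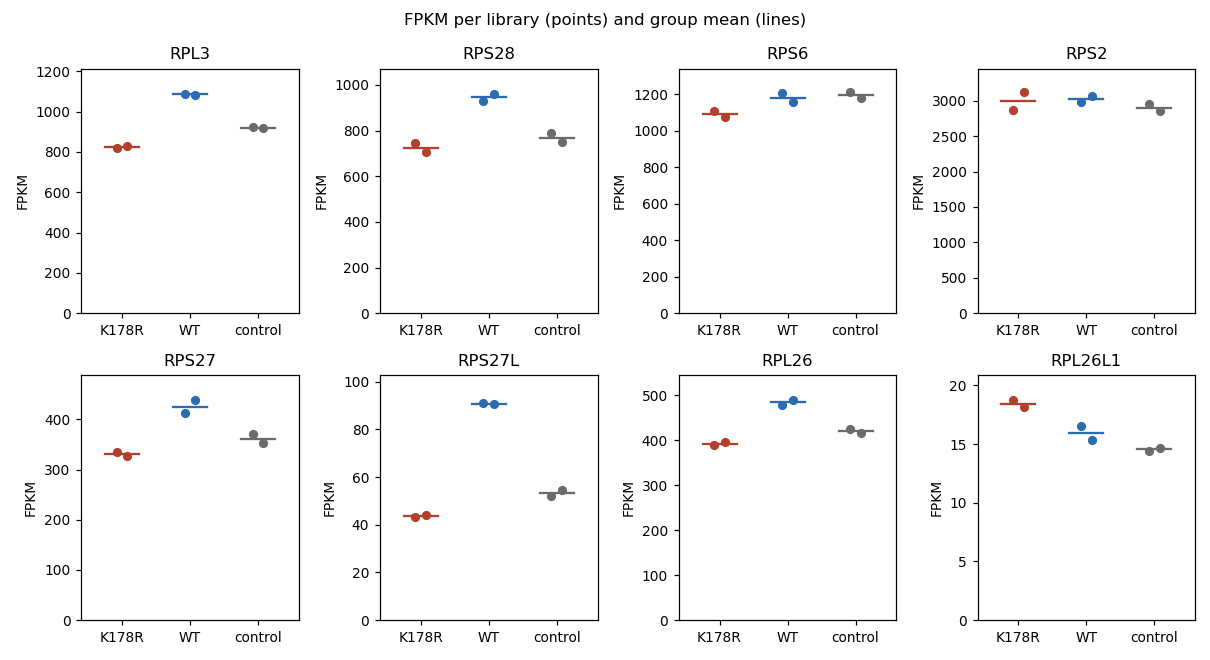
FPKM per library (points) and line mean (bars) for RPL3, RPS28, RPS6 and RPS2, and for RPS27 and RPL26 beside their paralogs RPS27L and RPL26L1, with K178R left, wild type TEAD4 in the middle and control right. RPL3 is lowest in K178R and highest in wild type, RPS2 overlaps between lines, RPS27L in wild type is well above the rest, and RPL26L1 is highest in K178R.

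Translation factors and other genes with TOP mRNAs moved in both directions. Of 18, 11 fell and 3 rose in K178R against wild type (background 34.5% and 10.4%), 8 fell and 0 rose in K178R against control (background 11.1% and 11.7%), and 8 rose and 3 fell in wild type against control (background 37.6% and 12.2%). By median-of-ratios scaling 5 fell and 3 rose (background 19.7% and 22.8%), 9 fell and 0 rose (background 11.9% and 10.9%), and 3 rose and 8 fell (background 22.4% and 25.3%) in the same comparisons. EEF1G, a subunit of the elongation factor exchange complex, fell in K178R against wild type (-0.30, adjusted p = 0.000196) and against control (-0.18, adjusted p = 0.00230). EIF3L, a subunit of initiation factor eIF3, had the largest change among them in K178R against wild type (-0.36, adjusted p = 0.000121), and TPT1, the translationally controlled tumour protein, followed (-0.33, adjusted p = 0.000182). PABPC1, the cytoplasmic poly(A)-binding protein, went another way, with 624 and 631 FPKM in K178R libraries, 578 and 582 FPKM in wild type libraries and 680 and 695 FPKM in control libraries. It was highest in the control line, lower in both TEAD4 lines, and higher in K178R than in wild type (log2 change 0.11, standard error 0.021, adjusted p = 0.00470). EEF1D showed the same order, at 0.12 in K178R against wild type (adjusted p = 0.0169) and -0.22 in wild type against control (adjusted p = 0.000935).

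Dedicated chaperones hold single ribosomal proteins before assembly. Of 9 such genes, 1 rose and 2 fell in K178R against wild type (background 10.4% and 34.5%), 1 rose and 0 fell in K178R against control (background 11.7% and 11.1%), and 1 rose and 2 fell in wild type against control (background 37.6% and 12.2%). By median-of-ratios scaling 4 rose and 0 fell (background 22.8% and 19.7%), 0 rose and 0 fell (background 10.9% and 11.9%), and 0 rose and 4 fell (background 22.4% and 25.3%) in these comparisons. GRWD1, the chaperone of RPL3, had 59.5 and 59.6 FPKM in K178R libraries, 51.0 and 50.5 FPKM in wild type libraries and 61.3 and 63.0 FPKM in control libraries. Its wild type libraries were the lowest, where those of RPL3 were the highest, and it rose in K178R against wild type (0.23, adjusted p = 0.000792). AAMP (-0.18, adjusted p = 0.0174) and PDCD2L, which binds RPS2 (-0.22, adjusted p = 0.0406), fell in that comparison. LTV1, which acts in small subunit assembly with RPS3, rose in K178R against control (0.12, adjusted p = 0.0460). TSR2, the chaperone of RPS26, rose in wild type against control (0.13, adjusted p = 0.0387), and BCCIP fell there (-0.13, adjusted p = 0.0123). By median-of-ratios scaling the calls of AAMP, PDCD2L, LTV1 and TSR2 in these comparisons were lost (adjusted p = 0.249, 0.240, 0.0606 and 0.733).

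Of 13 regulators of ribosomal protein mRNA, 2 rose and 3 fell in K178R against wild type (background 10.4% and 34.5%), 3 rose and 0 fell in K178R against control (background 11.7% and 11.1%), and 4 rose and 2 fell in wild type against control (background 37.6% and 12.2%). By median-of-ratios scaling 7 rose and 0 fell (background 22.8% and 19.7%), 2 rose and 0 fell (background 10.9% and 11.9%), and 3 rose and 6 fell (background 22.4% and 25.3%) in these comparisons. MYC had 82.7 and 83.0 FPKM in K178R libraries, 80.7 and 80.2 FPKM in wild type libraries and 58.5 and 59.6 FPKM in control libraries. Both TEAD4 lines lay above the control line, and MYC rose in K178R against control (log2 change 0.48, standard error 0.025, adjusted p = 2.18e-05) and in wild type against control (log2 change 0.44, standard error 0.025, adjusted p = 2.75e-05), and was not called in K178R against wild type (0.041, adjusted p = 0.216). By median-of-ratios scaling MYC was called higher there as well (0.15, adjusted p = 0.00348). Its partner MAX rose in the same comparisons (0.21 and 0.25). LARP1 was between 34.2 and 35.5 FPKM in all libraries and was called in no comparison without scaling. By median-of-ratios scaling LARP1 rose in K178R against wild type (0.13, adjusted p = 0.0107) and fell in wild type against control (-0.11, adjusted p = 0.0156). LARP4, a relative of LARP1, rose in both TEAD4 lines against control (0.12 in K178R and 0.12 in wild type), and both calls were lost by median-of-ratios scaling (0.11 and 0.0067, adjusted p = 0.0608 and 0.885). CNBP, which binds TOP mRNAs, had 146 and 148 FPKM in K178R libraries, 131 and 126 FPKM in wild type libraries and 153 and 157 FPKM in control libraries, and rose in K178R against wild type (0.19, adjusted p = 0.00174). EIF4EBP2, a repressor of cap-dependent initiation, fell in K178R against wild type (-0.19, adjusted p = 0.00382) and rose in wild type against control (0.22, adjusted p = 0.00163). Its call against wild type was lost by median-of-ratios scaling (-0.080, adjusted p = 0.0962).

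Genes with the pyrimidine start at any of their annotated starts and genes without it were set side by side, as a description. In K178R against wild type the 46 genes with it and the 16 without it both had a median log2 change of -0.21. In K178R against control the medians were -0.10 and -0.14, and in wild type against control 0.13 and 0.076. Of the 46 with it, 43 fell in K178R against wild type (background 34.5%), 23 fell in K178R against control (background 11.1%) and 31 rose in wild type against control (background 37.6%). Of the 16 without it, 16, 14 and 8 did so. Within the set without it the changes in K178R against wild type ran from -0.40 for RPL3 to -0.13, and within the set with it from -0.39 for RPL28 to -0.077 for RPL13.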

How the data were processed

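RNA of 6 HCT116 libraries was prepared with Trizol and the Illumina TruSeq RNA kit from total RNA, per the labels' protocols. The authors deposited 1 table of FPKM values per library with 20030 gene rows, and, for alignment, the submitters' processing notes list hg18 and Bowtie 0.12.2. Which program, gene annotation, strand setting and rule for reads with several matches lie behind the FPKM is not given in the sources used here. Left out were the 4 rows whose identifier occurred more than once, all among 27 identifiers turned into dates, and no coordinates were taken from the files. The RefSeq promoter table matched 62 of the 77 genes by symbol.

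FPKM values are not counts, and depth in reads is unknown, so no count model was run. Genes of at least 0.5 FPKM in at least 2 libraries, 11445 in all, were tested on log2(FPKM + 1) with limma 3.58.1 in R 4.3.3, with trend, 3 group means, all 6 libraries and no added scaling. This scale understates changes of low genes. Tests were two-sided with Benjamini-Hochberg adjustment over all tested genes and a threshold of 0.05, and the script was tested on simulated data. Groups followed the titles. Replicate numbers did not pair libraries: deviations of same-numbered libraries correlated at 0.0154, -0.0311 and 0.0323 over the tested genes.

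The alternatives were other scalings, a pseudocount of 0.1, no filter or one of 5 FPKM, averaged control libraries, limma without trend, a replicate block and leaving out each library. Median-of-ratios factors used the 13369 genes above 0 in all libraries. The genes and lists were chosen with earlier results of these data known. Genes named are the 5 highest and 5 lowest changes per comparison, a set picked for known roles, the 3 highest and 3 lowest levels, and the 4 largest changes of each list per comparison; others are named where a count of calls is spelled out. Some genes that these rules take are not reported here.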

Additional observations from a re-analysis of the deposited data

How the results depend on the processing

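For wild type against control the count of higher genes was 50 without scaling, 8 by median of ratios, 14 by upper quartile, 16 by median of ratios over genes of at least 1 FPKM and 11 relative to the median ribosomal protein gene, and lower genes numbered 0, 12, 7, 7 and 9. Leaving out a library leaves 1 library in its group, so counts of calls from those fits are not given. For K178R against control the 46 lower genes became 24 at equal total FPKM, 23 with no filter, 15 with averaged control libraries, 13 in limma without trend, 16 to 53 without 1 library, and 3 (with 5 higher) relative to the median ribosomal protein gene. For K178R against wild type 73 were lower (background 34.5%). Relative to the median ribosomal protein gene 13 were lower (background 11.8%) and 9 higher (background 39.2%). Large minus small subunit medians ran from -0.0219 to 0.0026 in wild type against control, from -0.0066 to 0.0216 in K178R against control and from -0.0119 to 0.0195 in K178R against wild type when 1 library was left out. The cause was not tested. With a replicate block 51 were higher in wild type against control, 41 lower in K178R against control and 73 lower in K178R against wild type, though numbers do not pair libraries. The share of all tested genes is not given for the blocked fit, so these counts cannot be set against a background. A pseudocount of 0.1 changed none of 150 results of single genes. 

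Among the 150 results of single genes, some genes called with or without an alternative changed sign under it. The values below cover those results only, and more genes of the family changed sign than are listed. In wild type against control, 73 of the 77 genes had a value above 0 without scaling and 37 by median of ratios. In wild type against control by median of ratios, log2 changes were -0.0996 for RACK1, -0.0235 for RPL5, -0.0059 for RPS12, -0.12 for RPS3 and -0.0971 for RPS4X. By upper quartile they were -0.0718 for RACK1, -0.0927 for RPS3 and -0.0694 for RPS4X, and by median of ratios over genes of at least 1 FPKM -0.0686, -0.0894 and -0.0661 for the same genes. In K178R against wild type RPL12 was at 0.0334 by median of ratios, 0.007 over genes of at least 1 FPKM, 0.0048 by upper quartile and 0.014 at equal total FPKM, and RPL36AL at 0.0228 by median of ratios and 0.0035 at equal total FPKM. Relative to the median ribosomal protein gene, wild type against control gave -0.0867 for RACK1, -0.0106 for RPL5, -0.11 for RPS3 and -0.0843 for RPS4X, and K178R against control gave 0.0856 for RPL37A, 0.035 for RPLP0 and 0.0837 for RPS23. That scaling gave, in K178R against wild type, 0.0264 for AAMP, 0.0175 for EIF4EBP2, 0.0045 for FAU, 0.0595 for RACK1, 0.14 for RPL12, 0.14 for RPL13, 0.13 for RPL36AL, 0.0093 for RPL5, 0.14 for RPL7L1, 0.0359 for RPLP1, 0.0829 for RPLP2, 0.20 for RPS2, 0.022 for RPS29, 0.0496 for RPS3, 0.029 for RPS4X, 0.0994 for RPS6 and 0.0109 for RPSA, since it sets the family's own shift to 0 by construction.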

Other observations

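The genes of the mitochondrial ribosome, a separate particle whose proteins are also encoded in the nucleus, were looked at after the data had been seen. Of 78 genes, 20 fell and 6 rose in K178R against wild type (background 34.5% and 10.4%), with a median log2 change of -0.058. In K178R against control 10 fell and 0 rose (background 11.1% and 11.7%), with a median of -0.045, against -0.11 for the cytosolic genes. In wild type against control 14 rose and 12 fell (background 37.6% and 12.2%), with a median of 0.016. By median-of-ratios scaling 7 fell and 24 rose (background 19.7% and 22.8%), 13 fell and 0 rose (background 11.9% and 10.9%), and 33 fell and 1 rose (background 25.3% and 22.4%) in the same order. Their summed FPKM was 3528 and 3615 in K178R libraries, 3694 and 3649 in wild type libraries and 3714 and 3649 in control libraries, and the wild type and control libraries overlapped.

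Among 4 genes that share sequence with the family, RPS10-NUDT3, a read-through of RPS10, had 83.8 and 84.2 FPKM in K178R libraries, 98.8 and 96.8 FPKM in wild type libraries and 84.7 and 85.3 FPKM in control libraries. RPL17-C18orf32, a read-through of RPL17, was between 50.04 and 58.3 FPKM in K178R libraries, between 60.9 and 65.7 FPKM in wild type libraries and between 52.5 and 57.4 FPKM in control libraries. RPSAP58, a copy of RPSA, had 6.87 and 7.23 FPKM in K178R libraries, 8.87 and 8.06 FPKM in wild type libraries and 7.96 and 7.98 FPKM in control libraries. All 4, RPL36A-HNRNPH2 included, fell in K178R against wild type (background 34.5%), and 2 of them by median-of-ratios scaling (background 19.7%).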
